A study of Mus musculus with 11 samples.

Results

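Kinins are short peptides that act on the B1 and B2 receptors, and the 10 genes described here encode those receptors, the tissue kallikrein and peptidases that shape or destroy kinins. They were taken as every probe set of a one-colour Affymetrix mouse array that the platform annotation assigns to Bdkrb1, Bdkrb2, Klk1, Ace, Mme, Ece1, Cpm, Cpd, Dpp4 or Xpnpep2, whatever its brightness. This gave 28 probe sets of 45101 on the array and 10 genes of 18193 that have a probe set of 1 symbol. The tissue was epididymal fat, a visceral depot, of male C57BL/6 mice aged 3 months on standard chow. Wild-type mice (genotype B1+/+) gave 4 arrays. Mice of genotype B1-/-, without a working B1 receptor gene and called B1 knockout, gave 4. Fat rescue mice (aP2B1-B1-/-) gave 3 arrays; they carry the same receptor deletion together with expression of the receptor that the labels call selective for fat. The aP2 promoter is that of Fabp4, the fatty acid binding protein gene of adipocytes, and is known to be active also in macrophages. The labels call the arrays of a genotype biological replicates and do not say which animals or litters they came from, so p-values measure only the spread between these arrays.

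Kininogens made mainly by the liver are cut by kallikreins, and tissue kallikrein releases a kinin that acts on the B2 receptor. Carboxypeptidases remove the last arginine and turn this peptide into a ligand of the B1 receptor. The B2 receptor is present in many tissues at rest, whereas the B1 receptor gene is known to be silent in most healthy tissues and to be induced by inflammatory cytokines. Angiotensin-converting enzyme, neprilysin, endothelin-converting enzyme, dipeptidyl peptidase 4 and aminopeptidase P cut kinins at other bonds, most of which ends their action.

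The tissue label fitted its markers: all 10 measured adipocyte markers were among the brightest 60% of probe sets (the upper 60%, ranked on mean log2 signal), led by Fabp4 and Adipoq, the adiponectin gene. None of 13 epididymis and male accessory gland markers was. That limit corresponded to a geometric mean signal of 23.7. Array medians lay at 41.3 to 45.1 for wild-type, 46.5 to 48.8 for knockout and 45.6 to 46.6 for rescue arrays. Wild type thus overlapped neither other genotype in them. Along the main axis of variation, wild-type array 1 was at -68.1 and the other 10 arrays were at -28.1 to 33.9. Rescue array 1 was at -28.1, with wild-type array 2 close to it at -27.0. Results that rest on wild-type array 1 and rescue array 1 are also given without both. Wild-type array 2 was left out only on its own. RNA quality was read from beta-actin as signal at its 3′ end over signal at its 5′ end. It was 1.65 to 1.83 for wild-type, 1.53 to 1.69 for knockout and 1.47 to 1.56 for rescue arrays, so wild type and fat rescue did not overlap in it. The same ratio of Gapdh was 0.918 to 1.03, 0.865 to 1.001 and 0.918 to 0.950 in that order, and these ranges overlapped. The part of RNA quality in the differences below was not tested.

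Of the 28 probe sets, 20 were above the limit of the upper 60%. Bdkrb1 and Bdkrb2 had none above it, Klk1 1 of 4, Cpm 1 of 2 and Cpd 6 of 7, and all probe sets of Ace, Mme, Ece1, Dpp4 and Xpnpep2 were above. A RefSeq table of the mouse build GRCm38.p6 held sequences before the start of 9 of the 10 genes. The 250 bases before the first listed start are shown for Bdkrb2, whose signal was near background in this fat, for Klk1, with 3 of 4 probe sets there, and for Ace and Mme, which were above the limit with all probe sets. Capitals mark matches on either strand to the TATA box TATAAA, present in 12.4% of 32851 such sequences, to the GC box GGGCGG, present in 32.7%, and to the CCAAT box, spelled as its name and present in 33.8%.
Bdkrb2 (chr12:105562922-105563171, + strand): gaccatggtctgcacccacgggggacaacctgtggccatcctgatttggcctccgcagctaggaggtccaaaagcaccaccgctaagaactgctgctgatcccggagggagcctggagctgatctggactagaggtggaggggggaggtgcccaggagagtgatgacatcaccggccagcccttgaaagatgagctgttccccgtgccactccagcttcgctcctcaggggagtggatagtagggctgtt
Klk1 (chr7:44225110-44225359, + strand): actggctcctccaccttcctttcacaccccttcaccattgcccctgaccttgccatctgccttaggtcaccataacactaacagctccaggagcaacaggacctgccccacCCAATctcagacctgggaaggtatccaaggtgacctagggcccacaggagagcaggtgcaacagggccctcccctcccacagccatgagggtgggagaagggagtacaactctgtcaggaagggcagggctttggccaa
Ace (chr11:105967698-105967947, + strand): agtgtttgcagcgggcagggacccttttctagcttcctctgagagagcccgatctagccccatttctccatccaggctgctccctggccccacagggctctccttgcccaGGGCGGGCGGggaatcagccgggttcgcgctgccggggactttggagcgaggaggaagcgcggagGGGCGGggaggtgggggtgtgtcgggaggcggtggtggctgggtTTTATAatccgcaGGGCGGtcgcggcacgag
Mme (chr3:63294961-63295210, + strand): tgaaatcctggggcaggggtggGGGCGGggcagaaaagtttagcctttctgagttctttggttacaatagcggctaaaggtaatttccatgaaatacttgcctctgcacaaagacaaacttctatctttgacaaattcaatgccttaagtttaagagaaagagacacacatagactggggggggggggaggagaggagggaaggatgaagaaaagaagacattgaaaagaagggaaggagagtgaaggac
No match of one motif overlapped a match of another in these stretches, and 2 of the 4 GGGCGG matches of Ace overlapped each other. Ace also held 1 TATAAA match on the opposite strand, Mme 1 GGGCGG, Klk1 1 CCAAT and Bdkrb2 none. The share of G and C was 60.8% before Bdkrb2, 58.8% before Klk1, 67.2% before Ace and 45.6% before Mme, beside a median of 52.4%. The stretches held 7, 0, 19 and 2 CG pairs, in the same order, beside a median of 6. These values belong to the first start only: the other 2 listed starts of Mme had 73.2% and 73.6% with 27 CG pairs each, and the second of Ace 58% with 1. The matches are a description of the letters and say nothing of binding.

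Bdkrb1, the gene deleted in the knockout, encodes the B1 receptor, and its signal was higher in every rescue array than in any other. Its only probe set, 1450586_at, read 5.5, 32.2, 3.7 and 8.9 in the wild-type arrays. The knockout arrays read 4.8, 29.4, 6.9 and 29.7. The rescue arrays read 73.4, 57.8 and 60.4. Wild type and knockout thus overlapped throughout, with 1 wild-type and 2 knockout arrays at 29.4 to 32.2 and the others at 8.9 or less, while fat rescue overlapped neither. The group means were 12.6 ± 13.3 (SD, n = 4), 17.7 ± 13.7 (n = 4) and 63.9 ± 8.36 (n = 3). The sources used here do not say whether the probes fall inside the deletion, so like signals in wild type and knockout do not check the genotype labels.

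On the log2 scale Bdkrb1 was 2.86 ± 0.80 (SE) higher in fat rescue than in wild type (95% interval 1.16 to 4.56) and 2.28 ± 0.80 higher than in knockout (0.58 to 3.99). Neither passed over all 45037 probe sets with limma (unadjusted p = 0.00277 and 0.0120; adjusted p = 0.554 and 1.0). The knockout minus wild-type difference was 0.58 ± 0.74 (adjusted p = 0.905). This size rests on single arrays. Leaving out a wild-type array gave 0.35 (array 1), 1.20 (array 2), 0.16 (array 3) or 0.59 (array 4). Leaving out a knockout array gave 1.06 (array 1), 0.19 (array 2), 0.88 (array 3) or 0.18 (array 4), and log2(value + 50) gave 0.11. The two-sided exact permutation p was 0.0571 for fat rescue against either group, the smallest that 3 against 4 arrays allow, and 0.629 for knockout against wild type. Signals this low make the log2 differences inexact: with log2(value + 50) they were 0.88 and 0.77 against wild type and knockout. Without wild-type array 1 and rescue array 1 they were 2.53 and 2.18 (unadjusted p = 0.0253 and 0.0394). Fabp4, whose promoter is used for the transgene, read 25362 ± 3889 in wild type, 23152 ± 4048 in knockout and 24341 ± 1633 in fat rescue with its brightest probe set. None of its 4 probe sets passed in any of the 3 comparisons (adjusted p from 0.889 to 1.0).

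Bdkrb2, the neighbour of Bdkrb1 on chromosome 12, encodes the B2 receptor, and both of its probe sets were near background in all genotypes. With 1442187_at the wild-type arrays read 19.9, 9.6, 20.5 and 12.7 and the knockout arrays 16.6, 28.7, 10 and 8.2. The rescue arrays read 14.0, 21.3 and 23.1. All 3 groups overlapped, and the differences were -0.09 ± 0.53 for knockout minus wild type, 0.44 ± 0.57 for fat rescue minus knockout and 0.35 ± 0.57 for fat rescue minus wild type. The dimmer 1422263_at read 2.8 to 5.6 in wild type, 2.4 to 4.4 in knockout and 4.2, 10.1 and 11.6 in fat rescue. Its fat rescue minus knockout difference of 1.22 ± 0.71 (unadjusted p = 0.105) rests on signals too low for a size, and was 0.13 with log2(value + 50). No difference of Bdkrb2 passed (adjusted p from 0.841 to 1.0 over both probe sets).

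**Figure D1:**
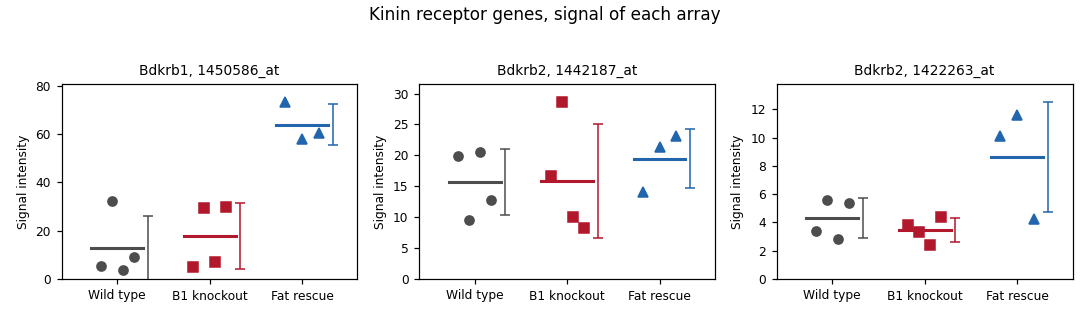
Signal intensity (y axis, linear, arbitrary units) of the probe sets of Bdkrb1 and Bdkrb2 in each array by genotype (x axis). Points are arrays, horizontal lines the group means and bars on the right 1 SD (n = 4, 4 and 3); the 3 rescue arrays of Bdkrb1 lie between 57.8 and 73.4, above the other 8, and the Bdkrb2 groups overlap.

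Klk1, the tissue kallikrein that releases kinins from kininogen, was at or near background in 3 of its 4 probe sets. The 2 dimmest, 1448107_x_at and 1415837_at, lay between 0.5 and 23.9 over all arrays, and 1455977_x_at between 1.5 and 21.8. The brightest, 1460050_x_at, read 72.0 to 159.6 in wild type, 55.1 to 100.7 in knockout and 50.3 to 116.1 in fat rescue, and these ranges overlapped. It differed by -0.49 ± 0.30 between knockout and wild type (95% interval -1.14 to 0.15, adjusted p = 0.797). Probe sets of the _x_at kind, 3 of the 4 here, can bind other genes, and Klk1 belongs to a large family of similar kallikrein genes, so the source of the signal of 1460050_x_at is uncertain. The 4 probe sets did not share a direction in any of the 3 comparisons.

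Mme, which encodes neprilysin, a membrane metallopeptidase that cuts kinins and many other peptides, had the smallest unadjusted p of the 28 probe sets in fat rescue against wild type. With the brighter probe set, 1455961_at, wild-type arrays read 434, 525, 444 and 380.2. Knockout arrays read 315, 385, 475 and 345. Rescue arrays read 288, 303 and 287. The rescue arrays lay below all 8 others, and the knockout arrays spanned the gap between the rescue and the wild-type arrays. The group means were 446 ± 59.96 (SD, n = 4), 379.9 ± 69.5 (n = 4) and 293 ± 9.18 (n = 3), in the order above. The dimmer probe set, 1422975_at, read 107, 124, 108 and 95.9 in wild type. Knockout arrays read 57.4, 101, 104 and 79.7, and rescue arrays 57.0, 48.8 and 69.8. Here the rescue arrays lay below all wild-type arrays and overlapped the lowest knockout array.

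Fat rescue minus wild type was -0.60 ± 0.14 on the log2 scale with 1455961_at (95% interval -0.90 to -0.30, a ratio of 0.661) and -0.90 ± 0.23 with 1422975_at (-1.40 to -0.41, a ratio of 0.535). Neither passed with limma (unadjusted p = 0.000764 and 0.00156; adjusted p = 0.400 and 0.509; exact permutation p = 0.0571 each). Fat rescue minus knockout was -0.36 ± 0.14 and -0.52 ± 0.23 (unadjusted p = 0.0228 and 0.0401, adjusted p = 1.0 each). Knockout minus wild type was -0.24 ± 0.13 and -0.38 ± 0.22 (adjusted p = 0.778 and 0.789). Without wild-type array 1 and rescue array 1, fat rescue minus wild type was -0.59 and -0.90 (unadjusted p = 0.00568 and 0.00969). Fat rescue minus knockout was then -0.35 and -0.51 (unadjusted p = 0.0630 and 0.0906). The order of the means was wild type, knockout, fat rescue with both probe sets, and the first pair in that order did not differ beyond its spread.

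Neprilysin is known as a surface marker of stromal cells, so the markers of other cell types in fat stand beside these values. The summed signal of 11 progenitor and fibroblast markers was 31364 to 38752 for wild-type arrays, 31236 to 48045 for knockout arrays and 33541 to 37811 for rescue arrays, and these ranges overlapped. None of the 11 passed, and 8 were higher and 3 lower in mean in fat rescue than in wild type. The brightest were Dcn, the decorin gene, at 13501 ± 1677 in wild-type and 13222 ± 1804 in rescue arrays, and Col3a1, a collagen gene. The only ones at an unadjusted p under 0.05 in that comparison, named after their values were seen, went opposite ways: Anxa3 read 0.40 ± 0.15 (adjusted p = 0.696), and Dpt, an extracellular matrix protein gene of fibroblasts, read -0.49 ± 0.12 for fat rescue minus wild type (adjusted p = 0.492), where the median of the list was 0.06. Adipocyte markers were lower in mean, as Mme was: 10 of 10 in knockout than in wild type (median -0.22, 3 at an unadjusted p under 0.05) and 9 of 10 in fat rescue than in wild type (median -0.12, 0 under 0.05), and none passed. In fat rescue minus knockout 7 of 10 were higher, with a median of 0.03. Their summed signal was 110250 to 143888, 98202 to 132153 and 107791 to 126952 over the wild-type, knockout and rescue arrays, which overlapped. The summed signal of 10 mesothelial markers, of the sheet of cells that covers this depot, was 3054 to 5120 in wild type, 4490 to 6157 in knockout and 5652 to 6172 in fat rescue. It was thus higher in every rescue array than in any wild-type array, opposite to Mme, with 9 of 10 markers higher in mean, 6 of them at an unadjusted p under 0.05, and none past the threshold. The brightest were Upk3b and Gpm6a. Macrophage markers summed to 14568 to 20617, 16061 to 30128 and 20159 to 24781, led by Lyz2 and Csf1r. Of the 12, all 12 were higher in mean in knockout than in wild type (median 0.26), 1 of them at an unadjusted p under 0.05. In fat rescue 11 were higher than in wild type (median 0.38), 5 of them at an unadjusted p under 0.05, and none passed. Beside these lists, 6.53% of all probe sets had such a p when knockout was compared with wild type. The share was 6.68% for fat rescue, where 7.23% of all had groups without overlap. The median over all probe sets was 0.05 in both comparisons with wild type. No marker of these 4 lists was listed at 0, and their part in the differences of the 10 genes was not tested. In whole tissue, fewer cells of a type and less RNA per cell cannot be told apart.

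**Figure D2:**
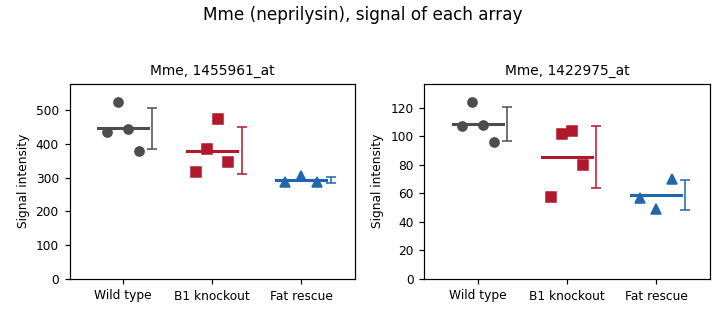
Signal intensity (y axis, linear) of the 2 probe sets of Mme in each array by genotype (x axis). Points are arrays, horizontal lines the group means and bars on the right 1 SD; with 1455961_at the rescue arrays lie between 287 and 303, below all others, and with 1422975_at between 48.8 and 69.8, below all wild-type arrays.

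Ace, the angiotensin-converting enzyme of endothelial surfaces and a main kinin-degrading enzyme, was among the members with the narrowest intervals and did not differ beyond the spread. With 1451911_a_at wild-type arrays read 459, 586, 721 and 658 and knockout arrays 567, 735, 608 and 659. Rescue arrays read 677, 605 and 677. Wild-type array 1 was the lowest of the 11. Knockout minus wild type was 0.10 ± 0.13 (95% interval -0.18 to 0.37) and fat rescue minus wild type 0.13 ± 0.14 (-0.17 to 0.42). The second probe set, 1427034_at, read 292 to 443 over all arrays, with differences of -0.02 ± 0.14 and 0.13 ± 0.15. The intervals of both probe sets reach no further than -0.31 and 0.47 on the log2 scale in any comparison.

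Ece1 encodes endothelin-converting enzyme, which activates endothelin and also cuts kinins. With 1434177_at it read 671 to 902 in wild type, 738 to 920.0 in knockout and 761 to 1007 in fat rescue, and all groups overlapped. Knockout minus wild type was 0.04 ± 0.12 and fat rescue minus wild type 0.08 ± 0.13. With 1455741_a_at fat rescue minus wild type was -0.26 ± 0.17 (95% interval -0.64 to 0.11), and with the dim 1441423_at, at 10.1 to 53.4 over all arrays, 0.71 ± 0.45. The 3 probe sets therefore did not share a sign, and none passed (adjusted p from 0.810 to 1.0 over the 3 comparisons).

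Cpm and Cpd encode carboxypeptidases M and D, which remove C-terminal arginine or lysine and can make the ligands of the B1 receptor. Cpm read 52.4 to 74.3 in wild type, 41.6 to 76.4 in knockout and 49.4 to 69.7 in fat rescue with 1429413_at. Its differences were -0.08 ± 0.27 for knockout and 0.07 ± 0.29 for fat rescue against wild type. The knockout arrays fell into a lower and a higher pair, at 41.6 and 41.6 against 72.0 and 76.4. The second probe set of Cpm, 1453009_at, was near the limit of the upper 60% and read 8.8 to 39.7.

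Cpd had 7 probe sets, of which 5 were well measured. The brightest, 1455009_at, read 558 to 711 in wild type, 564 to 651 in knockout and 520.1 to 661 in fat rescue, with differences of -0.01 ± 0.10 for knockout and -0.06 ± 0.11 for fat rescue against wild type. Over the 5 brightest, knockout minus wild type ran from -0.15 (1418019_at) to 0.22 (1418018_at, 95% interval -0.03 to 0.47). The last of these had the smallest unadjusted p of the 28 probe sets in that comparison, 0.0773 (adjusted p = 0.774). A dim probe set, 1447392_s_at, read 32.8, 56.9, 74.3 and 59.3 in knockout arrays. Rescue arrays read 39.4, 16.4 and 34.3. Its fat rescue minus knockout difference of -0.93 ± 0.41 had an unadjusted p of 0.0403 (adjusted p = 1.0) and overlapping groups. The 5 brighter probe sets lay between -0.19 and 0.28 in the same comparison.

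Dpp4, the dipeptidyl peptidase that removes N-terminal pairs of residues from peptides and is found on T cells and on adipose progenitors, differed between its probe sets. With 1438279_at wild-type arrays read 36.0, 46.9, 71.0 and 58.4 and knockout arrays 50.7, 65.3, 55.3 and 79.0. Rescue arrays read 78.1, 85.1 and 94.8, above every wild-type array and overlapping the highest knockout array. Fat rescue minus wild type was 0.74 ± 0.27 (95% interval 0.17 to 1.3; unadjusted p = 0.0144; adjusted p = 0.689; exact permutation p = 0.0571). Without wild-type array 1 and rescue array 1 it was 0.63 (unadjusted p = 0.0516). The brightest probe set, 1416697_at, gave wild-type signals of 159, 335, 302 and 372. Knockout arrays read 289.7, 378, 236 and 441, and rescue arrays 316, 299 and 359. These groups overlapped, wild-type array 1 was the lowest of the 11, and fat rescue minus wild type was 0.22 ± 0.26 (-0.33 to 0.77). The remaining pair gave 0.42 ± 0.29 (1459973_x_at) and 0.18 ± 0.28 (1441342_at). All 4 were above 0 for knockout and for fat rescue against wild type, and none passed. This shared direction leans on wild-type array 1, which was the lowest of the 11 with all 4 probe sets. Without that array 1416697_at was -0.04 for knockout and -0.05 for fat rescue against wild type. Lymphocyte markers, 7 in all, summed to 180 to 397 in wild-type, 349 to 579 in knockout and 367 to 479 in rescue arrays, which overlapped. Like Dpp4 they were higher in mean than in wild type, 6 of 7 in knockout (median 0.31) and 7 of 7 in fat rescue (median 0.49). The median of 0.49 was the value of Cd79b, a B cell gene. Of the T cell genes, Cd3e was -0.16 ± 0.52 in knockout and 0.07 ± 0.57 in fat rescue against wild type. In the same order Cd3g was 0.31 ± 0.43 and 0.08 ± 0.46, and Cd8a 0.69 ± 0.54 and 0.72 ± 0.58. Cd4 was 0.72 ± 0.69 and 2.08 ± 0.74, at signals too low for a size. All probe sets had a median of 0.05 in both comparisons, and none of the 7 markers passed. Cd79b and Ms4a1, B cell genes, were the brightest, Cd4 lay below the upper 60%, none was listed at 0, and their part was not tested. The brightness of the 4 Dpp4 probe sets ran from the 54.2th to the 81.1th percentile.

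**Figure D3:**
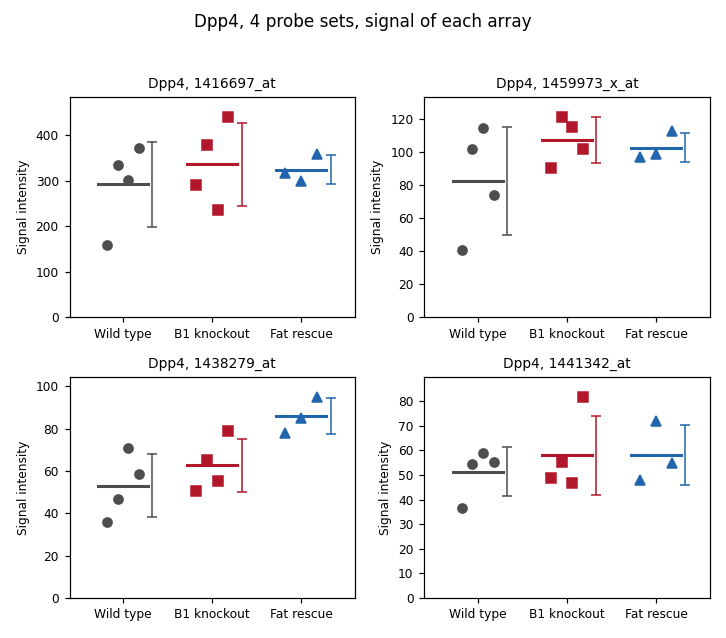
Signal intensity (y axis, linear) of the 4 probe sets of Dpp4 in each array by genotype (x axis). Points are arrays, horizontal lines the group means and bars on the right 1 SD; with 1438279_at the rescue arrays (78.1 to 94.8) lie above all wild-type arrays (36.0 to 71.0), and in the other 3 panels the groups overlap.

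Xpnpep2, the membrane-bound aminopeptidase P that removes the first residue of kinins, read 47.9, 25.9, 41.3 and 38.4 in wild type. Knockout arrays read 39.9, 63.4, 36.1 and 57.3, and rescue arrays 42.5, 48.7 and 29.0. The groups overlapped, with differences of 0.35 ± 0.31 for knockout and 0.06 ± 0.34 for fat rescue against wild type (95% intervals -0.31 to 1.02 and -0.66 to 0.78). This signal lay in the middle of the array, at the 49.6th percentile.

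**Figure D4:**
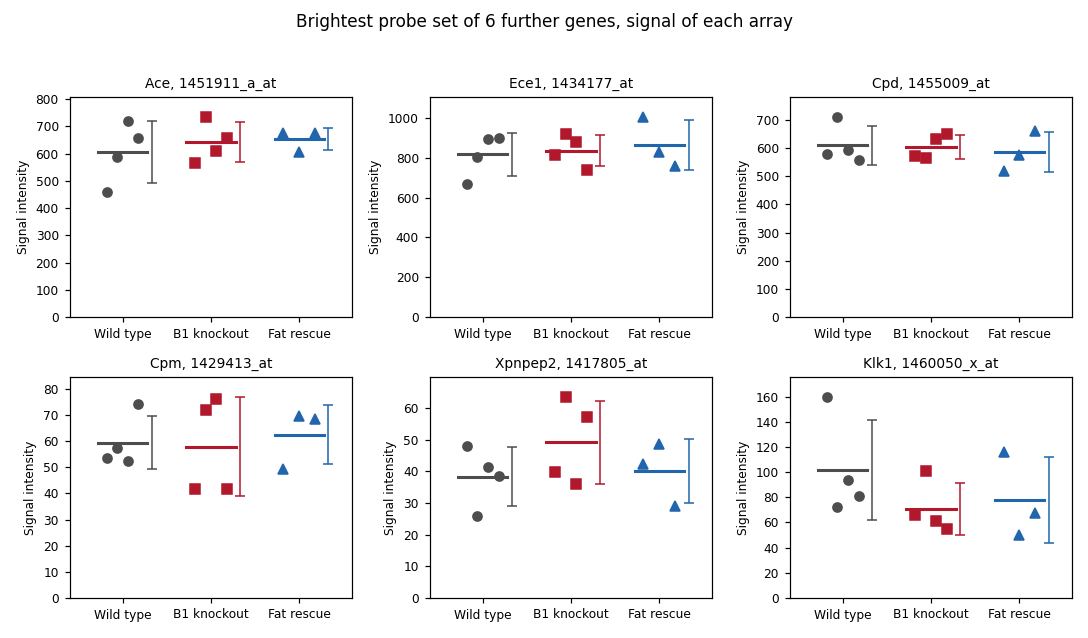
Signal intensity (y axis, linear, from 0) of the brightest probe set of Ace, Ece1, Cpd, Cpm, Xpnpep2 and Klk1 in each array by genotype (x axis). Points are arrays, horizontal lines the group means and bars on the right 1 SD; the 3 genotypes overlap in all 6 panels.

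Across the 10 genes, no probe set passed an adjusted p of 0.05 in any comparison with limma. In knockout against wild type 0 of 28 were called, where 0.0178% of all probe sets were. At an unadjusted p under 0.05 the count was 0, beside 6.53% of all, and groups that did not overlap numbered 0, beside 3.63%. In fat rescue against knockout 0 of 28 were called, as were 0% of all. There 4 of 28 (14.3%) had an unadjusted p under 0.05, beside 4.13% of all: Bdkrb1, both probe sets of Mme and 1447392_s_at of Cpd. The groups did not overlap in 2 of 28, 1 of Bdkrb1 and 1 of Mme (7.14%, beside 5.24% of all). In fat rescue against wild type 0 of 28 were called, where 0.0155% of all were. The unadjusted count was 4 of 28, beside 6.68%, and the count without overlap 4, beside 7.23%. Both held the same 4 probe sets, those of Bdkrb1 and Mme and 1438279_at of Dpp4. The F test over the 3 genotypes called 0, where 0.0178% of all passed, and 4 had an unadjusted p under 0.05, beside 5.84%. These 4 probe sets stand for 3 genes, and probe sets of a gene are not independent. By the exact permutation test 0 of 28 had p under 0.05 in knockout against wild type, where the smallest possible is 0.0286, and the comparisons with 3 rescue arrays cannot reach 0.05.

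The median log2 difference of the 28 probe sets was 0.01 for knockout minus wild type (14 above 0 and 14 below), beside 0.05 for all probe sets. For fat rescue minus knockout it was 0.07 (17 above 0), beside 0.00, and for fat rescue minus wild type 0.10 (19 above 0), beside 0.05. Comparisons that share an array group are not independent of each other. The intervals were narrow for bright probe sets such as those of Ace and Cpd and wide for the receptors and Klk1.

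**Figure D5:**
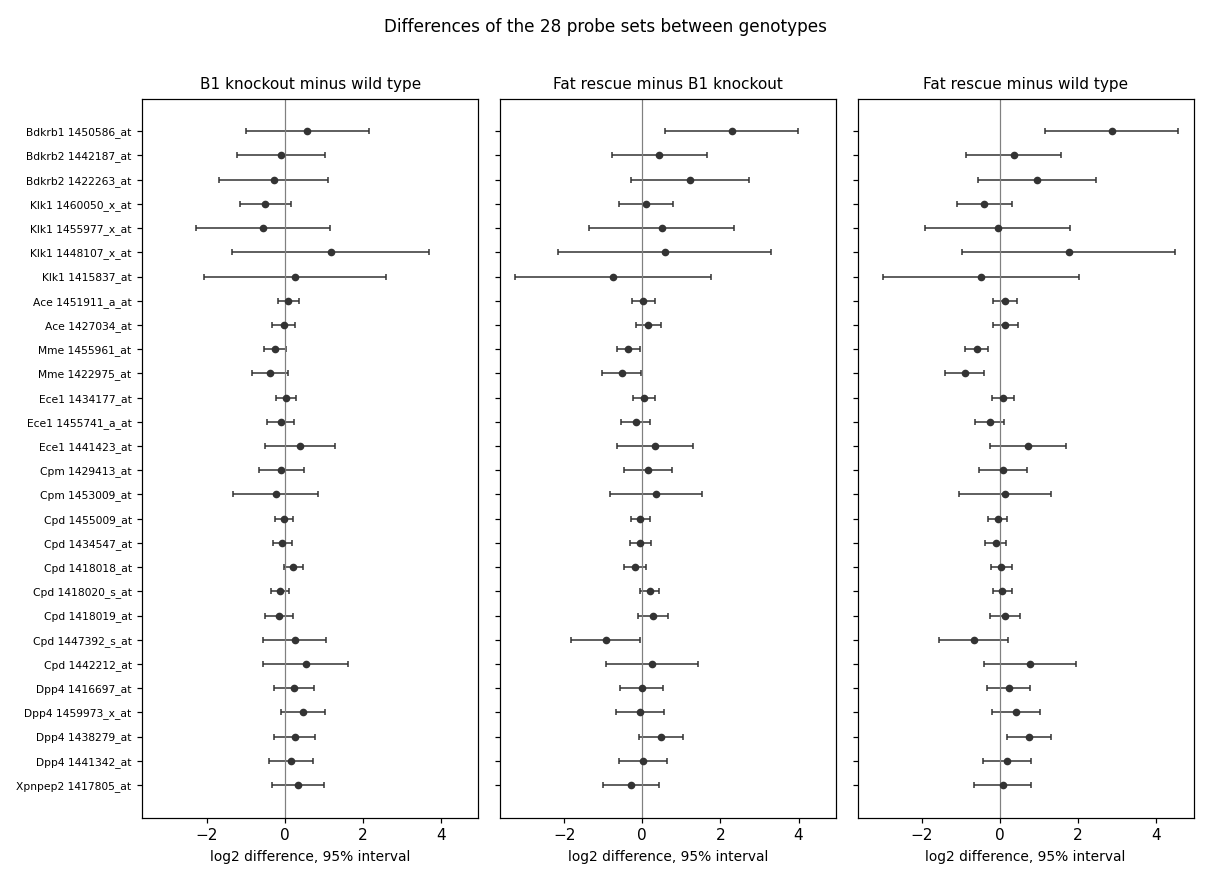
Log2 difference (x axis, with 95% interval from limma) of each of the 28 probe sets (y axis, by gene, brightest first within a gene) in the 3 comparisons. Intervals away from 0 are those of Bdkrb1, Mme and 1447392_s_at of Cpd in fat rescue minus knockout and of Bdkrb1, Mme and 1438279_at of Dpp4 in fat rescue minus wild type; none passed after adjustment over all probe sets.

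The other genes of the kinin system were read through 4 lists, each gene by its brightest probe set, and 0 of them passed in any comparison. Of 24 kininogen, kallikrein, contact system and inhibitor genes 17 were measured and 3 were in the upper 60%, among them Serping1, the C1 inhibitor that restrains plasma kallikrein, at 4505 ± 777 in wild type, 4620 ± 563 in knockout and 5125 ± 327 in fat rescue. The smallest unadjusted p of that list belonged to Serpina5, whose mean signal of 1.23 to 9.37 was background, and to Klk8 (fat rescue minus knockout 0.74) and Klk1b21 (fat rescue minus wild type -1.01). Of 20 further kinin-cleaving or related peptidases measured, 16 were in the upper 60%. Fat rescue minus wild type had 4 with a higher and 1 with a lower mean at an unadjusted p under 0.05, and none passed (lowest adjusted p = 0.660). All probe sets had 6.68% there in either direction. The genes with the smallest p in any of the 3 comparisons were Mmel1, a relative of neprilysin at 10.8, 13.6 and 1.80 in mean (smallest in fat rescue against knockout), Ctsg, a neutrophil protease at 6.03, 18.2 and 12.5 (smallest in knockout against wild type), and Cpz, a carboxypeptidase at 36.4, 53.8 and 79.3 in wild type, knockout and fat rescue. Mmel1 and Ctsg lay below the upper 60%, so their means were background. Anpep, the broad aminopeptidase N and thus another peptidase of this list, read 173 ± 31.9, 244 ± 162 and 287 ± 25.1; it was named after its values had been seen.

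Of 27 measured genes of kinin receptor signalling 26 were in the upper 60%, and the medians of the list were -0.02, -0.01 and 0.01 for knockout minus wild type, fat rescue minus knockout and fat rescue minus wild type. Ptges, the inducible synthase of prostaglandin E, read 422 ± 142, 269 ± 38.1 and 242 ± 109.7 (fat rescue minus wild type -0.83 ± 0.28, adjusted p = 0.660). Prkce, a protein kinase C isoform, read 644 ± 31.9, 548 ± 89.1 and 500.0 ± 98.2 (-0.38 ± 0.14, adjusted p = 0.697), and Nos2, the inducible nitric oxide synthase, was at background with 3.80, 12.4 and 7.83. Of 15 measured genes listed with the inducers of the B1 receptor gene 11 were in the upper 60%. They were cytokines, 2 of their receptors, NF-kappaB and AP-1 factors, an NF-kappaB inhibitor and a kinase. Of the 15, 10 were higher in mean in knockout than in wild type, with a median of 0.20. In fat rescue 12 were higher than in wild type, with a median of 0.28, both medians beside 0.05 over all probe sets. None passed. The median of 0.28 was the value of Il6, whose means of 3.98, 5.55 and 3.67 were background. Relb, an NF-kappaB subunit, read 117 ± 9.60, 132 ± 23.7 and 161 ± 3.72 (0.46 ± 0.16, adjusted p = 0.683). Il1r1, the interleukin-1 receptor, read 222 ± 46.6, 300.4 ± 44.8 and 288 ± 29.8, and Jun 825 ± 80.6, 983 ± 206 and 1051 ± 177.

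The genes whose log2 signals over the 11 arrays were most like those of Bdkrb1 were Rps6, a ribosomal protein gene, Fam98b, Samm50, Zfp282 and Chst12. Likeness was the root mean square difference of standardized values, which was 0.40, 0.47, 0.52, 0.53 and 0.56 over 12709 genes compared. Their ranges over the groups were narrow beside that of Bdkrb1: Rps6 read 397 to 458 in wild type, 405 to 476 in knockout and 481 to 497 in fat rescue. None of the 5 passed in fat rescue against wild type (lowest adjusted p = 0.702).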

How the data were processed

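Epididymal fat RNA of 11 samples was labelled with biotin and read on one-colour arrays. Values are the signal intensity of each probe set as deposited by the authors, on a linear scale. GCOS 1.3 and MAS5 are named, without a role, in the submitters' processing notes. The mean of each array without its lowest and highest 2% was 200.0, so the arrays share a common scale, and no detection calls were used here. The only 0 was replaced by 0.1, the lowest value above 0, and log2 was taken. The 64 control probe sets were left out, and 45037 were fitted without a filter on brightness, so that dim members were tested too. Of these 34945 had 1 gene symbol in the platform annotation, 932 several and 9160 none.

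All 11 arrays were fitted in 1 model with limma 3.58.1 (eBayes with trend, R 4.3.3), with genotype and no other term, two-sided contrasts between genotypes, and Benjamini-Hochberg adjustment over all probe sets at 0.05. Values with ± after a mean are SD and after a log2 difference SE; the number of arrays limits their precision. Exact permutation tests of mean log2 signals used scipy 1.17.1. The members and lists were chosen with earlier results of these data known. Every member was named; of each pathway list those that passed, otherwise the 3 genes with the smallest unadjusted p over the 3 comparisons; of the marker lists the text describes, the 2 brightest and, if at most 3, those below the upper 60%. Serping1, Anpep, Dpt, Anxa3, Il6, Cd3e, Cd3g and Cd8a were added after their values were seen. The fit was tested on simulated data, 5 sets per comparison with 200 changed probe sets each. At the threshold it found 8.4 to 11.6% of 1.5-fold and 22.8 to 27.6% of 2-fold changes. Of 4-fold changes it found 50.4 to 54.4% and of 8-fold changes 62.4 to 66.8%. Of its calls, 2.82 to 4.99% were false. A difference that did not pass is therefore not shown to be absent.

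The alternatives were quantile normalization, median centring, log2(value + 50), the upper 60% or 40% of probe sets, 1 probe set or the mean per gene, eBayes without trend or robust, array weights, only the groups compared, a replicate block, and leaving out arrays. No label gives a batch or scan date.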

Additional observations from a re-analysis of the deposited data

Results flagged for a closer look

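Of 56 groups of 4 arrays (28 probe sets in wild type and in knockout), 1 held an array far from the others, fewer than the 5% that chance gives. Klk1 probe set 1455977_x_at read 1.5 in knockout array 4, while the other 3 knockout arrays read 13.8 to 15.8. All 4 values lay below the limit of the upper 60% of probe sets, 23.7.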

How the results depend on the processing

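No member probe set passed in any of the 24 alternatives of each comparison (23 of the F test). The lowest adjusted p was 0.376 in knockout against wild type, 0.878 in fat rescue against knockout, 0.236 in fat rescue against wild type and 0.291 for F. Of all probe sets, 3 to 19, 0 to 1, 1 to 10 and 2 to 11 were called over these alternatives, beside 8, 0, 7 and 8. Median centring moved the median of all probe sets from 0.05 to -0.10 in knockout minus wild type and gave 14 calls.

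The direction of Bdkrb2 in knockout minus wild type, -0.09, turned without some arrays: it ran from -0.43 to 0.17 when each array was left out, and was 0.051 without wild-type array 1 and rescue array 1, all at adjusted p of 0.914 or more. The cause was not tested. The other 253 of 258 values of the 12 differences followed across alternatives kept their direction and side of the threshold. Part of this was fixed beforehand. Alternatives that change only the spread, or leave out an array of the third genotype, cannot move a difference. Those of Mme, Cpd and Dpp4 were followed because their unadjusted p was under 0.05 in the main fit. Bdkrb1 in fat rescue ran from 0.88 to 3.49 above wild type and from 0.77 to 2.68 above knockout, both lowest with log2(value + 50). Mme in fat rescue minus wild type ran from -0.70 to -0.52 with 1455961_at and from -1.04 to -0.55 with 1422975_at. The same in fat rescue minus knockout ran from -0.44 to -0.25 and from -0.70 to -0.31. Over all 28 probe sets 13, 11 and 11 changed sign under some alternative in knockout against wild type, fat rescue against knockout and fat rescue against wild type. With the replicate block Bdkrb1 was 3.06 and 2.49 higher in fat rescue than in wild type and knockout (adjusted p = 0.532 and 1.0), and the block changed no call. The labels give replicate numbers without a shared source: deviations from group means correlated at -0.09 to 0.22 in 10 pairs of one number, 3 of them over 0.1, and at -0.22 to 0.15 in 30 other pairs. Where a filter on brightness was used, Bdkrb1, Bdkrb2 and the other dim probe sets had no value. Of the probe sets 8 lay below the upper 60%, where signal near background limits every difference.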
